A study of Mus musculus with 899 samples.

Results

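The miRNA mmu-miR-208a-3p, mmu-miR-208b-3p and mmu-miR-499-5p (here without the species prefix) were taken by name from a table of 1915 mature mouse miRNA counted in plasma, and all 3 had reads. miR-499-5p was found in nearly all samples and the 2 miR-208 species in a minority of them. miR-499-5p had at least 1 read in 883 plasma samples (98.2%) and none in 16. miR-208b-3p had a read in 328 samples (36.5%) and none in 571, and miR-208a-3p had a read in 242 samples (26.9%) and none in 657. The opposite arms of the same hairpins, miR-208a-5p, miR-208b-5p and miR-499-3p, had 0 reads in every sample.

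These miRNA are encoded inside genes of the cardiac and slow muscle motor protein myosin heavy chain, and are made together with their host transcripts. Myh6 encodes the alpha chain of the adult mouse heart and holds miR-208a, Myh7 encodes the beta chain of the fetal heart and of slow skeletal fibres and holds miR-208b, and Myh7b, a related myosin gene of slow muscle and heart, holds miR-499. In mice, miR-208a is regarded as the most heart-restricted of them, whereas miR-208b and miR-499 are also made in slow skeletal muscle. All of them are known as plasma markers of injured heart muscle.

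Plasma was collected from 196 mice that received whole thorax lung irradiation (WTLI) with a single dose or a sham treatment. The mice were of the strains C3Hf/Sed/Kam (C3H; 64 irradiated and 32 sham mice, 402 samples) and C57Bl/6 (68 irradiated and 32 sham mice, 497 samples), young adults of both sexes, with no engineered allele named in the labels. Blood was taken before irradiation (PT), on day 2 or day 5 (D2, D5) and then monthly, up to month 4 (M4) in C3H and month 6 (M6) in C57Bl/6 mice, so that the 2 strains, 2 treatments and their time points formed 32 groups. Of the irradiated C57Bl/6 mice, 4 had no PT sample. The sample titles put the mice into the sets G1 and G3 (C57Bl/6) and G2 and G4 (C3H), of which only G1 and G2 were bled after M1. Fewer irradiated mice had late samples: 29 irradiated C57Bl/6 mice had a sample at M4, 21 at M5 and 8 at M6. Live mice were bled behind the eye and euthanized mice from the heart itself, and the labels do not say which samples came from the heart, so a terminal bleed and a late time point cannot be told apart.

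The mature sequences are shown because they fix which reads can be assigned to each miRNA and which seed they share. They are printed 5′ to 3′ with the seed (bases 2 to 8) in capitals, from RefSeq on GRCm38.p6, where all 3 were matched by name.
mmu-miR-208a-3p: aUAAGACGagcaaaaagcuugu
mmu-miR-208b-3p: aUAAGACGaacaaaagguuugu
mmu-miR-499-5p: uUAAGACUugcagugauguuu

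miR-208a-3p and miR-208b-3p had the same seed, UAAGACG, which no other of the 1679 mature mouse miRNA in the RefSeq table carried. They differed at 3 of 22 positions counted from the 5′ end, all outside the seed (G10A, A16G and C18U from miR-208a-3p to miR-208b-3p). miR-499-5p differed from miR-208a-3p at 9 of 21 positions, of which 1 was the last base of the seed (G8U), and from miR-208b-3p at 11 of 21. How the counting treated reads too short to tell miR-208a-3p from miR-208b-3p is not given in the sources used here, so a part of their low counts may be shared. miR-208a-3p lies at chr14:54949072-54949093 on the minus strand, in intron 29 of the transcripts of Myh6 with 39 exons. miR-208b-3p lies on the same strand at chr14:54975710-54975731, in intron 31 of the transcripts of Myh7 with 41 exons, and miR-499-5p at chr2:155622893-155622913 on the plus strand, in intron 19 of the 42-exon transcript of Myh7b.

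miR-499-5p ranked 189th of the 1403 miRNA with a read, miR-208b-3p 439th and miR-208a-3p 493rd. Over all samples they held 39368, 1406 and 955 reads, or 25.8, 0.923 and 0.627 counts per 1e6 miRNA reads (pooled CPM, from the summed reads and totals of the samples). Where it was found, miR-499-5p had a median of 30 reads, whereas miR-208a-3p and miR-208b-3p had a median of 3 reads each, and 53 of the 242 samples with miR-208a-3p and 57 of the 328 with miR-208b-3p rested on exactly 1 read. The most reads of miR-208a-3p in any sample were 32, in an irradiated C3H mouse at M4, and the most of miR-208b-3p were 24, in a sham C3H mouse at M4. A sample without a read thus lay below what its depth could detect, which does not show that the miRNA was absent from that plasma.

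The depth was 206490 to 11814515 miRNA reads per sample (median 1475030), and the group medians lay between 855373 and 2882714. Thinned to 206490 reads each, 82 samples kept a read of miR-208a-3p, 131 of miR-208b-3p and 829 of miR-499-5p. The miRNA of other blood and tissue sources were present throughout: all 5 listed red blood cell miRNA and all 5 leukocyte miRNA had a read in every sample, as did 1 of 2 hepatocyte and 3 of 4 skeletal muscle miRNA. In plasma, fewer releasing cells and less RNA released per cell cannot be told apart, and nor can heart from slow skeletal muscle as the source of miR-208b-3p and miR-499-5p.

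miR-499-5p was carried by every mouse, and miR-208a-3p and miR-208b-3p came and went. Of the 196 mice, 196 had a miR-499-5p read in at least 1 sample and 181 in every sample. For miR-208a-3p these counts were 142 and 3 mice, and for miR-208b-3p 166 and 8 mice. After a sample with a miR-208a-3p read, the next sample of the same mouse had one in 55 of 181 cases (30.4%), against 144 of 522 (27.6%) after a sample without. For miR-208b-3p these were 114 of 255 (44.7%) and 154 of 448 (34.4%). The next bleed thus had a read about as often after a read as after none for miR-208a-3p, and more often after a read for miR-208b-3p, neither of which was tested.

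miR-208b-3p was found about as often in samples with as in samples without miR-208a-3p. Of the samples with miR-208a-3p, 39.3% also had miR-208b-3p, against 35.5% of the samples without it, and 95 samples held all 3 miRNA. The 16 samples without miR-499-5p came from 15 mice, 12 of the samples from C57Bl/6 and 4 from C3H mice, and their totals of 206490 to 1800977 reads had a median of 807892, below the median of all samples. Of these 16, 4 still had miR-208a-3p and 0 had miR-208b-3p. Their median of miR-1a-3p, a miRNA of heart and skeletal muscle, was 894 CPM against 1560 CPM over all samples (CPM of a single sample uses its total after TMM scaling).

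**Figure D1:**
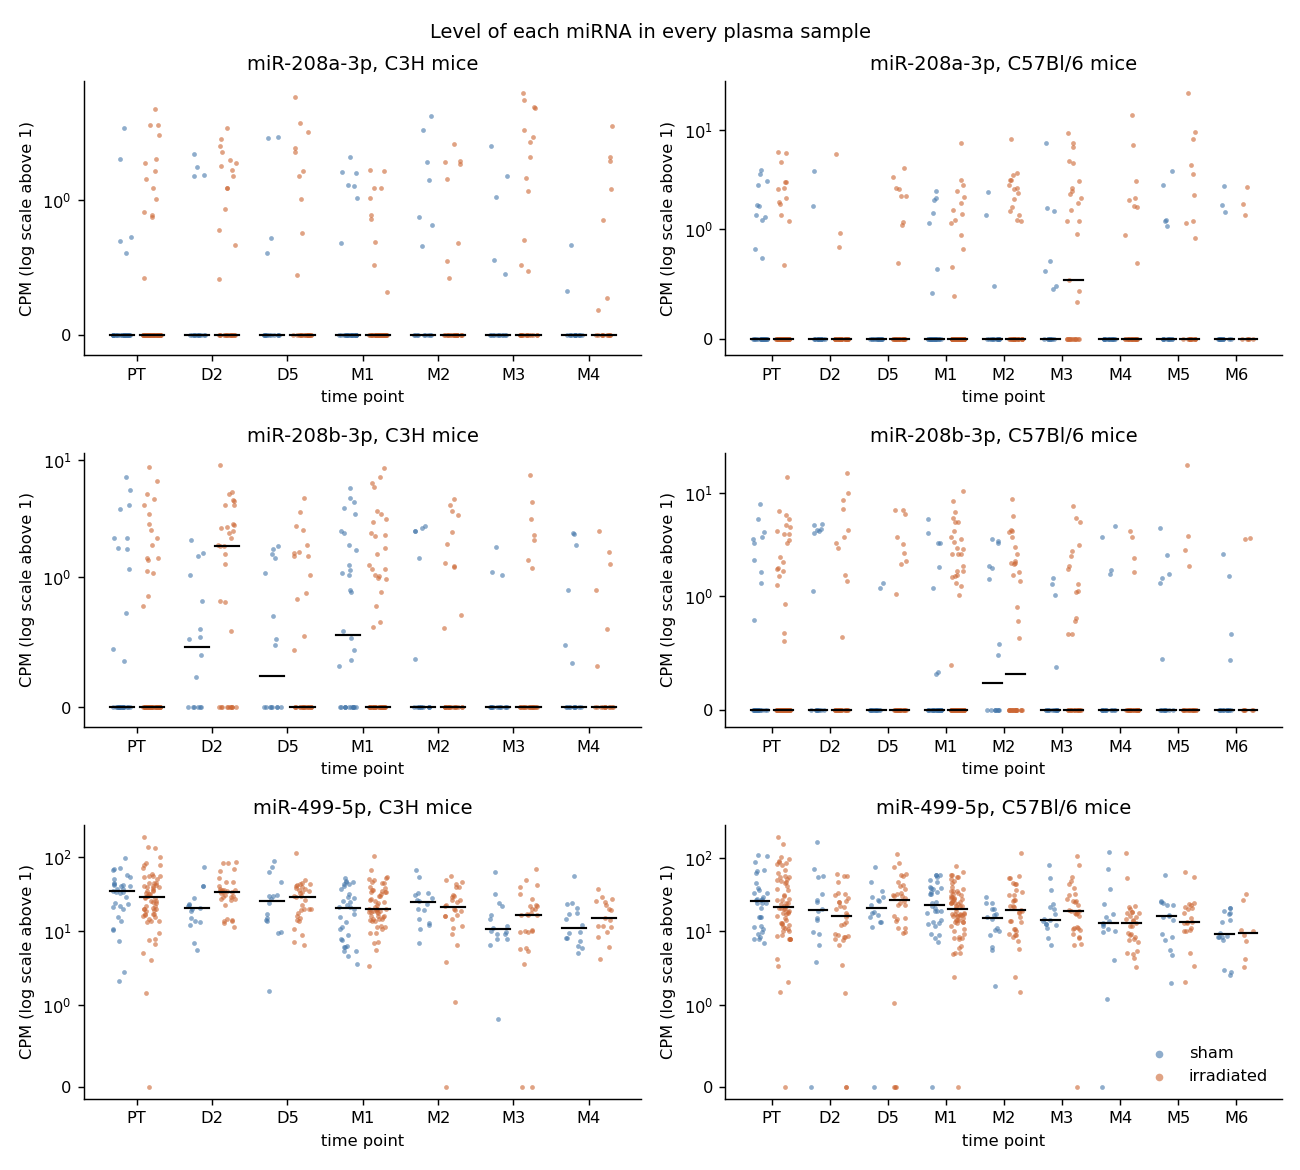
Level of miR-208a-3p (top), miR-208b-3p (middle) and miR-499-5p (bottom) in CPM in every sample, for C3H (left) and C57Bl/6 mice (right), with blue points for sham and orange points for irradiated mice and black lines for group medians; the axis is linear from 0 to 1 and logarithmic above. Most points of miR-208a-3p and miR-208b-3p sit at 0, and most points of miR-499-5p lie between 1 and 100 CPM.

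The level of miR-499-5p ranged over the 32 groups from a median of 9.13 CPM in sham C57Bl/6 mice at M6 to 34.6 CPM in sham C3H mice before irradiation. By mean log2 CPM (after TMM scaling, with a prior count of 2) the highest group was irradiated C3H at D2 with 5.07 ± 0.77 (SD, n = 32), and the lowest was sham C57Bl/6 at M6 with 3.44 ± 0.86 (SD, n = 16). Ordered by mean, none of the 31 pairs of neighbouring groups differed by more than the SD, for this or either other miRNA. With 32 groups in order such gaps are small by construction, so they do not show whether the groups separate. For miR-208b-3p the highest group was also irradiated C3H at D2, where 22 of 32 samples had a read (68.8%), and the lowest was sham C57Bl/6 at D5 with 2 of 16. For miR-208a-3p the highest was irradiated C57Bl/6 at M3, where 18 of 31 samples had a read (58.1%) and which was the only group with a median above 0, at 0.538 CPM. In sham C57Bl/6 mice at D5 and at M4, 0 of 16 samples had a read, which allows a share of up to 18.8% (3 of 16), or 20.6% by the exact Clopper-Pearson 95% interval.

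Whether irradiation of the thorax changed these miRNA was asked by comparing irradiated with sham mice of the same strain at each time point. Before irradiation no difference between the future groups passed the test for any of the 3 miRNA, and 0.0% of all miRNA were called in either strain. miR-208a-3p was read in 13 of 64 irradiated and 11 of 32 sham C57Bl/6 mice (0.453 and 0.528 pooled CPM), and in 14 of 64 and 5 of 32 C3H mice. Over the 14 later comparisons, miR-208a-3p was called higher in irradiated mice in 2, and miR-208b-3p and miR-499-5p in 0 (edgeR quasi-likelihood test, Benjamini-Hochberg adjusted p under 0.05 over the 483 miRNA tested at each time point). That miR-208a-3p passed the filter on low counts may have rested on irradiated samples, the side where it was called higher. Over all miRNA and the same 14 comparisons, 3.76% of the 6762 tests were called. By time point these were 4.97%, 3.11%, 3.31%, 0.621%, 2.07% and 0.414% of the tested miRNA from D2 to M4 in C3H mice. In C57Bl/6 mice they were 6.63%, 14.1%, 3.73%, 3.31%, 1.66%, 4.76%, 3.52% and 0.414% from D2 to M6. At an unadjusted p under 0.05, miR-208a-3p passed in 6 of 14 comparisons, miR-208b-3p in 4 and miR-499-5p in 2, against 14.4% of all tests. The log2 fold changes of irradiated over sham were above 0 in 11 of 14 comparisons for miR-208a-3p and for miR-208b-3p, and in 9 of 14 for miR-499-5p, whose fold changes stayed between -0.70 and 0.77.

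Both calls of miR-208a-3p were in C57Bl/6 mice, at time points where the sham group had no read. At D5, 9 of 32 irradiated mice had reads, with levels of 4.13, 3.37, 2.60, 2.52, 2.16, 2.14, 1.16, 1.10 and 0.686 CPM, and the other 23 irradiated and all 16 sham samples were at 0. Of these 9 samples, 4 held exactly 1 read. The groups overlapped at 0, where most irradiated samples lay. The pooled level was 0.863 CPM in irradiated mice against 0 reads in 14636546 in sham mice. Set against a floor of 3 reads over the sham group it was 4.21-fold higher, and 3.37-fold without the highest library. Such a floor covers counting error only and leaves out the spread between mice, so these folds do not bound the difference between the groups. The adjusted p was 0.0134, at a time point where 14.1% of the tested miRNA were called and 6.21% were called higher.

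At M4, 9 of 29 irradiated C57Bl/6 mice had reads of miR-208a-3p. Their levels were 14.3, 6.99, 3.06, 2.06, 1.94, 1.70, 1.69, 0.942 and 0.688 CPM, and the other 20 irradiated and all 16 sham samples were at 0. A single mouse held 20 of the 58 reads. The pooled level of 1.09 CPM was 9.77-fold above a floor of 3 reads over the sham mice, which had 0 reads in 26851105. Without that mouse it was 6.55-fold above this floor, which again leaves out the spread between mice. The adjusted p was 0.00032 (0.00407 without that mouse), with 4.76% of the tested miRNA called at M4 and 3.11% called higher. Samples with a read came from both sexes, 5 of 14 females and 4 of 15 males at M4. At D5 they came from 4 of 8 females and 3 of 8 males of set G3, 2 of 8 males of set G1 and 0 of 8 females of G1.

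Both calls depended on the test. With limma-voom the adjusted p was 0.521 at D5 and 0.188 at M4, with DESeq2 0.427 and 0.0798, and with the mouse as a random block in limma-voom 0.544 and 0.191. Fisher's exact test of samples with a read gave unadjusted p = 0.0204 at D5 and p = 0.017 at M4, and an adjusted p of 1.0 at both over the 1403 miRNA with a read, of which 0.0% were called at either time point and 1.28% and 1.64% had an unadjusted p under 0.05. Leaving out the females of G3 took the adjusted p at D5 to 0.161, and leaving out the females of G1 took that at M4 to 0.12 (both chosen after seeing the data). The irradiated shares of 28.1% at D5 and 31.0% at M4 lay between those of the irradiated (20.3%) and sham mice (34.4%) before irradiation. In both comparisons the sham share, at 0 of 16, lay below its value before treatment, and the irradiated share lay above its own. The shares before irradiation cover the mice of G1 and G3, of which only a part was bled at D5 and only G1 at M4. They are thus not shares of the same mice. The sham group had a median depth of 855373 reads at D5, the lowest of all groups, against 1205391 before treatment and 1695331 at M4. Thinned to 206490 reads, 5 of 32 irradiated and 0 of 16 sham samples kept a read at D5 (Fisher's exact test, p = 0.154). At M4 these were 2 of 29 and 0 of 16 (Fisher's exact test, p = 0.531). Before treatment they were 8 of 64 and 2 of 32.

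**Figure D2:**
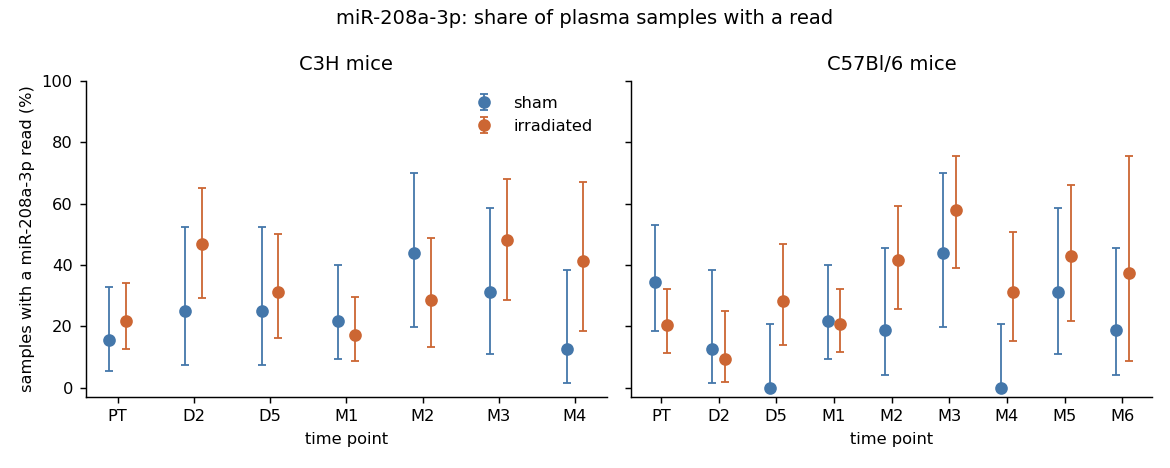
Percent of samples with at least 1 read of miR-208a-3p by time point in sham (blue) and irradiated (orange) C3H (left) and C57Bl/6 mice (right), with exact Clopper-Pearson 95% binomial intervals as bars. From M2 on the irradiated point lies above the sham point at 7 of 8 time points, with overlapping intervals, and the sham C57Bl/6 mice have 0 of 16 samples with a read at D5 and at M4.

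From M2 on, with the sexes combined, miR-208a-3p was found in a larger share of irradiated than of sham samples of both strains, apart from C3H at M2, where 8 of 28 irradiated and 7 of 16 sham samples had a read. In C57Bl/6 mice the counts of samples with a read were 15 of 36 irradiated against 3 of 16 sham at M2, 18 of 31 against 7 of 16 at M3, 9 of 21 against 5 of 16 at M5 and 3 of 8 against 3 of 16 at M6. In C3H mice they were 13 of 27 against 5 of 16 at M3 and 7 of 17 against 2 of 16 at M4. By sex, the C3H counts were 9 of 13 irradiated against 1 of 8 sham males at M3 and 5 of 9 against 0 of 8 at M4 (Fisher's exact test, unadjusted p = 0.0237 and 0.0294, adjusted p = 1.0 for both), but 4 of 14 against 4 of 8 females at M3 and 2 of 8 against 2 of 8 at M4. In C57Bl/6 mice the share was higher in irradiated animals of both sexes at M2, M3, M4 and M6, and at M5 in females (3 of 9 against 0 of 8) but not in males (6 of 12 against 5 of 8). The difference between the sexes was not tested at these time points. Pooled over M2 to the last time point, 54 of 125 irradiated C57Bl/6 samples had a read against 18 of 80 sham samples, at 1.37 and 0.439 CPM. For C3H these were 28 of 72 against 14 of 48, at 0.985 and 0.338 CPM. These are repeated bleeds of the same mice, and counted by mouse the order was not the same: a read was found at least once in 30 of 36 irradiated and 14 of 16 sham C57Bl/6 mice, and in 18 of 28 and 11 of 16 C3H mice, with fewer bleeds per mouse in the irradiated groups. The irradiated share was higher at 10 of 14 time points in all, as it was at 10 or more for 2.43% of the 659 miRNA whose shares differed at 10 or more time points. It was higher at 7 of 8 from M2 on, as it was at 7 or more for 2.45% of the 572 miRNA whose shares differed at 7 or more of these. No comparison was made with miRNA found as often as miR-208a-3p.

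For miR-208b-3p, which has the same seed, the shares lay closer together. From M2 on, 43 of 125 irradiated and 26 of 80 sham C57Bl/6 samples had a read of it (34.4% and 32.5%), and 24 of 72 and 15 of 48 C3H samples (33.3% and 31.2%). Its share was higher in irradiated mice at 6 of 14 time points and lower at 6. Its largest differences in level were log2 fold changes of 2.17 ± 0.95 (SE) in C57Bl/6 at D5 (adjusted p = 0.106), 1.77 ± 0.75 in C57Bl/6 at M3 (adjusted p = 0.342) and 1.71 ± 0.72 in C3H at D2 (adjusted p = 0.169). The difference between miR-208a-3p and miR-208b-3p in their response was not tested.

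Over all time points after irradiation together, miR-208a-3p differed between irradiated and sham mice in C3H (edgeR F test over 6 time points, adjusted p = 0.0154) and in C57Bl/6 (over 8 time points, adjusted p = 3.93e-06), where 15.5% and 25.3% of the tested miRNA were called. miR-208b-3p did not pass in C3H (adjusted p = 0.364) or C57Bl/6 (adjusted p = 0.0609), nor did miR-499-5p (adjusted p = 0.804 and 0.261). In simulated counts with no change this F test called sparse miRNA more often than its threshold allows, as did the test at single time points to a lesser degree, so the p of miR-208a-3p and miR-208b-3p are too small. By limma-voom the adjusted p of miR-208a-3p was 0.0117 in C3H and 0.0221 in C57Bl/6, and by DESeq2 0.42 and 0.0606. With the mouse as a random block it was 0.0181 and 0.0591, and with the mouse as a fixed block, which compares the change since PT, 0.509 and 0.666, so that neither call was left. Without the males of G2 the edgeR value in C3H was 0.113.

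With each mouse reduced to 1 value, its mean deviation from its strain and time point, miR-208a-3p was higher in irradiated than in sham C57Bl/6 mice by 0.26 ± 0.073 log2 CPM (SE; 68 and 32 mice; permutation over mice within set and sex, chosen after seeing the data, two-sided, unadjusted p = 0.0037). The irradiated mice had a mean of 0.72 ± 0.47 log2 CPM (SD) and the sham mice 0.45 ± 0.24, and a read was found in 32.0% and 18.8% of the samples of a mouse on average, a difference within time points of 13.1 ± 4.97 percentage points (SE; permutation p = 0.0185). In C3H mice the difference was 0.13 ± 0.082 log2 CPM (SE; 64 and 32 mice; permutation p = 0.18). For miR-208b-3p it was 0.19 log2 CPM in C57Bl/6 (permutation p = 0.119) and 0.09 in C3H mice (permutation p = 0.395). For miR-499-5p it was -0.09 in C57Bl/6 (permutation p = 0.49) and 0.25 ± 0.14 in C3H mice (permutation p = 0.0472). These are 6 tests on log2 CPM, of which the lowest p was that of miR-208a-3p in C57Bl/6 mice.

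The highest levels of miR-208a-3p came from single bleeds of irradiated C57Bl/6 mice. Mouse 1097, a female whose first sample was at M1, had no PT sample. It had 0 reads at M1, 5 at M2, 0 at M3 and 0 at M4. At M5 it had 28 reads (23.6 CPM), the highest level of all samples. The same sample held the highest level of miR-208b-3p (22 reads, 18.5 CPM) and 64.8 CPM of miR-499-5p. Mouse 1044, also a female, had 0 reads at PT, D5 and M1, then 5 at M2, 5 at M3 and 20 at M4 (14.3 CPM), where miR-208b-3p had 0 reads and miR-499-5p was at 7.87 CPM. The highest sample of miR-208a-3p thus also held miR-208b-3p, and the next did not. Of the 8 samples with the highest CPM of miR-208a-3p, 7 were irradiated C57Bl/6 samples from M2 on and 6 of the 8 had 0 CPM of miR-208b-3p.

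The other muscle miRNA gave no call for irradiation. Of a list of 9 striated muscle miRNA (both arms of miR-1a, miR-133a, miR-133b and miR-206, which regulate muscle differentiation and growth), 5 had enough reads to be tested: miR-1a-3p, miR-1a-1-5p, miR-133a-3p, miR-133b-3p and miR-206-3p. Over 14 comparisons of irradiated with sham mice, 0 of their 70 tests were called. The median log2 fold change of the list lay between -0.66 and 0.66, and that of all 483 miRNA between -0.08 and 0.01. At D5 in C57Bl/6 mice, where miR-208a-3p was called, the list had a median of -0.26. Its members then lay on both sides of 0, with miR-133a-3p at 0.37 and miR-1a-3p at 0.32. Below 0 were miR-206-3p at -0.26, miR-1a-1-5p at -0.48 and miR-133b-3p at -0.53. At M4 the list had a median of -0.66. The miR-208a-3p fold change was above 0 at both time points. The summed CPM of 4 skeletal muscle markers at M4 ran from 168 to 19460 (median 3697) in irradiated and from 1807 to 33430 (median 8365) in sham C57Bl/6 mice. That of the 2 hepatocyte markers ran from 886 to 106100 (median 11940) in irradiated and from 843 to 5428 (median 2825) in sham mice. At D5 the hepatocyte medians were 810 in irradiated and 1866 in sham mice. Red blood cell markers had M4 medians of 41560 and 39660, and leukocyte markers 16910 and 16440. Whether these levels go with miR-208a-3p was not tested.

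Whether irradiation acted differently in the 2 strains was tested at the 6 later time points they share. None of the 3 miRNA passed this test (edgeR F test, adjusted p = 0.0634 for miR-208a-3p, 0.691 for miR-208b-3p and 0.265 for miR-499-5p), which called 4.35% of the tested miRNA. Before irradiation no strain difference in these miRNA passed either, with C57Bl/6 over C3H log2 fold changes of 0.43 for miR-208a-3p, 0.31 for miR-208b-3p and -0.09 for miR-499-5p (adjusted p = 0.362, 0.52 and 0.692), at a time point where 50.7% of the tested miRNA were called. miR-208a-3p was then read in 24 of 96 C57Bl/6 and 19 of 96 C3H mice, and miR-208b-3p in 31 and 29. Of the other muscle miRNA, miR-1a-3p was higher in C57Bl/6 mice (log2 fold change 0.58, adjusted p = 0.0225) and miR-206-3p lower (-0.55, adjusted p = 0.0313).

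No difference between females and males before irradiation passed the test for any of the 3 miRNA (edgeR, adjusted p between 0.443 and 0.855), in tests that called 14.5% of the miRNA in C3H and 14.7% in C57Bl/6 mice. The F test of a sex difference in the response over D2, D5 and M1 was also not passed, with an adjusted p of 0.457 in C3H and 0.186 in C57Bl/6 mice for miR-208a-3p, where 0.414% and 5.38% of the tested miRNA were called. Irradiated and sham mice of 1 sex were compared by edgeR at D2, D5 and M1 alone, and the one call there was miR-208a-3p in C3H females at D5, read in 7 of 16 irradiated and 0 of 8 sham females (adjusted p = 0.0416, with 0.621% of miRNA called higher). Here too the sham group had no read, and the adjusted p was 0.0731 by limma-voom and 0.0884 with the mouse as a random block. Fisher's exact test gave an unadjusted p = 0.0538 and an adjusted p of 1.0. In C3H males at D5 it was read in 3 of 16 irradiated and 4 of 8 sham mice. The difference between the sexes at D5 had an adjusted p of 0.11.

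The clearest change of miR-499-5p was with time in the sham mice. In sham C57Bl/6 mice the lowest, median and highest levels were 6.93, 25.7 and 109.5 CPM before treatment (n = 32) and 2.56, 9.13 and 20.8 CPM at M6 (n = 16), so that the ranges overlapped. The highest sample at M6 lay below the earlier median, but that median includes mice of G3, which were not bled at M6. From before treatment to M6 the log2 fold change was -1.51 ± 0.37 (SE, by edgeR, adjusted p = 0.000368). In sham C3H mice the levels were 2.11, 34.6 and 98.8 CPM before treatment, 0.829, 10.5 and 62.2 CPM at M3 and 5.075, 10.8 and 55.1 CPM at M4. The log2 fold changes were -1.15 ± 0.36 (SE; adjusted p = 0.00823) at M3 and -1.21 ± 0.36 (adjusted p = 0.00303) at M4. It was also called lower in sham C57Bl/6 mice at M2, by a log2 fold change of -1.14 ± 0.36 (adjusted p = 0.0143), and at M5, by -0.89 ± 0.36 (adjusted p = 0.0452, and 0.0899 without the highest library of the earlier samples).

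In all, miR-499-5p was called lower than before treatment in 5 of 14 comparisons within sham mice and higher in 0, where 26.6% of the tests of all miRNA were called in either direction. At these 5 time points, 13.7% (C3H M3), 19.9% (C3H M4), 6.0% (C57Bl/6 M2), 12.4% (M5) and 14.9% (M6) of the tested miRNA were called lower. Over all later time points together miR-499-5p passed the F test in both strains (adjusted p = 0.00839 in C3H and 0.000898 in C57Bl/6), as 46.0% and 62.9% of the tested miRNA did. With the mouse as a random or fixed block, these F tests had an adjusted p of 0.0161 and 0.0487 in C3H, and of 0.0531 and 0.28 in C57Bl/6, where the call was lost. In C3H it was lost by quantile normalization (0.0527). At single time points, the calls at M3 and M4 in C3H and at M6 in C57Bl/6 were kept with either block (fixed block, adjusted p = 0.0206, 0.0135 and 0.0149), and those at M2 and M5 in C57Bl/6 were lost (random block, adjusted p = 0.135 and 0.123). Only mice of G1 and G2 were bled this late. Within them alone, the log2 fold change was -1.65 (adjusted p = 0.00107) at M6 in C57Bl/6 and -1.10 (adjusted p = 0.00597) and -1.09 (adjusted p = 0.00446) at M3 and M4 in C3H mice. Without the males of G2 the C3H values were -0.81 (adjusted p = 0.387) and -0.55 (adjusted p = 0.432).

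Set against its own first sample, miR-499-5p was lower in 14 of 16 sham C57Bl/6 mice at M6, by a mean log2 difference of -1.13 ± 0.37 (SE; sign-flip permutation over mice, chosen after seeing the data, two-sided, p = 0.00411). In C3H mice it was lower in 14 of 16 at M3 (-1.21, permutation p = 0.0233) and in 13 of 16 at M4 (-1.16, permutation p = 0.00935). In C57Bl/6 mice at M2 and M5 it was lower in 11 and 10 of 16 (permutation p = 0.0702 and 0.115). These are the 5 of 14 such tests that go with the calls, on the same samples, and their p are unadjusted. Among the rest, the lowest was at M1 in C3H mice (lower in 18 of 32, -0.67, permutation p = 0.024). The others had a permutation p between 0.223 and 0.555. The irradiated groups had late medians of 9.56 CPM at M6 in C57Bl/6 (n = 8, and 21.6 before irradiation, n = 64) and 14.8 CPM at M4 in C3H mice (n = 17, and 28.7 before, n = 64). The earlier medians include mice and whole sets without a late sample, so these are not mice set against their own first sample.

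**Figure D3:**
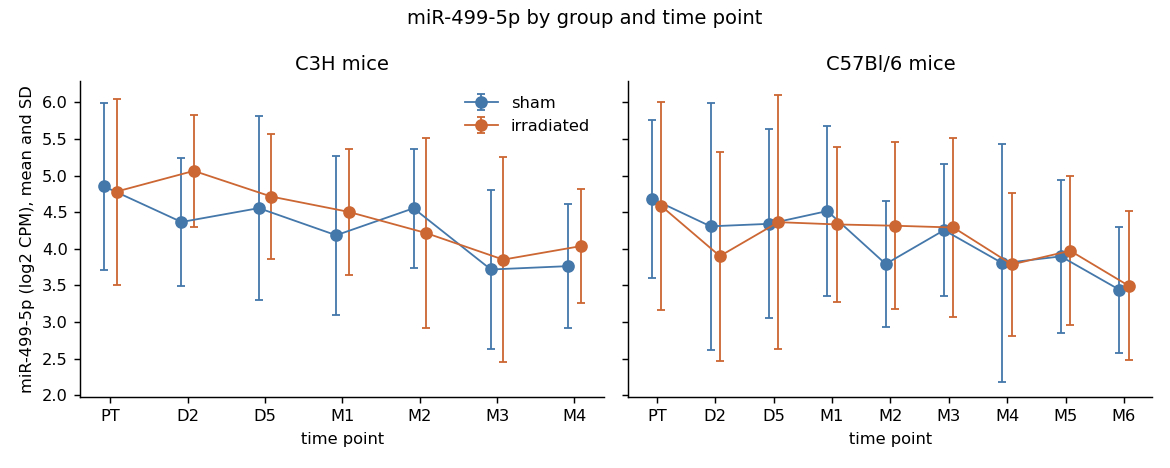
Mean level of miR-499-5p (log2 CPM, with SD as bars) by time point in sham (blue) and irradiated (orange) C3H (left) and C57Bl/6 mice (right). The means of both treatments lie lower at the last time point than before irradiation, at 3.44 in sham C57Bl/6 mice at M6, and the sham and irradiated bars overlap at every time point.

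The other muscle miRNA had few calls, in both directions, at the 5 time points where miR-499-5p was lower. Of the list of 5, 2 were called higher at M3 in C3H mice and 1 was called lower at M6 in C57Bl/6 mice, with 0 calls at the other three time points. The median log2 fold change of the list was 0.58 at M3 and 0.30 at M4 in C3H mice, 0.44 at M2 and 0.03 at M5 in C57Bl/6 mice, and -0.50 at M6, where the fall of miR-499-5p was largest. Over all 14 comparisons in sham mice, 13 of the 70 tests were called higher and 2 lower. The summed CPM of the 4 skeletal muscle markers had a median of 6331 before treatment and 2692 at M6 in sham C57Bl/6 mice, and of 7467 before treatment, 11500 at M3 and 5952 at M4 in sham C3H mice. The part of these muscle miRNA levels in the fall of miR-499-5p was not tested.

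The time course of miR-208a-3p and miR-208b-3p in sham mice depended on the test. Over all later time points, miR-208a-3p passed the edgeR F test in C57Bl/6 (adjusted p = 0.00193; 0.0307 with the mouse as a random block, 0.106 as a fixed block and 0.334 by DESeq2) and not in C3H mice (adjusted p = 0.0764; 0.0376 and 0.0337 with the mouse as a block). miR-208b-3p did not pass it in either strain (adjusted p = 0.198 in C3H and 0.0571 in C57Bl/6), nor by DESeq2 (0.646 and 0.256), but passed with the mouse as a random or fixed block in both (0.0116 and 0.00426 in C3H, 0.00916 and 0.0221 in C57Bl/6). miR-208a-3p was called lower than before treatment in sham C57Bl/6 mice at D5 (adjusted p = 0.0117, with 15.9% of miRNA called lower) and at M4 (adjusted p = 0.0011, with 14.7% called lower), the groups with no read. By limma-voom these values were 0.788 and 0.00642, and by DESeq2 0.425 and 0.106. Before treatment 11 of the 32 sham C57Bl/6 mice of G1 and G3 had a read (0.528 pooled CPM). This was 2.58-fold above a floor of 3 reads over the sham group at D5 and 4.73-fold above that at M4. Only a part of these mice was bled at D5 and only those of G1 at M4, so these levels are not of the same mice. These are the same sham samples that gave the calls for irradiation, so the comparisons share them. At single time points miR-208b-3p was called by edgeR in 0 of 14 such comparisons, with log2 fold changes below 0 in 12 of 14 and an unadjusted p under 0.05 in 4.

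Across samples, miR-499-5p was correlated with the other muscle miRNA, miR-208b-3p more weakly, and miR-208a-3p hardly with any miRNA. After subtracting group means, over all samples, the miRNA most like miR-499-5p were miR-133a-3p (Pearson r = 0.549), miR-1a-3p (0.503) and miR-206-3p (0.475). Those most like miR-208b-3p were miR-499-5p (0.30), miR-133a-3p (0.266) and miR-1a-3p (0.258). Those most like miR-208a-3p were miR-27a-3p, miR-335-5p and miR-34a-5p, with r of only 0.151, 0.137 and 0.135, and its r with miR-208b-3p was 0.0172. These r are descriptions, since samples of the same mouse and library depth enter both sides and sparse counts hold r near 0.

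Before irradiation, with 1 sample per mouse, 8 pairs of miRNA were compared within each of the 4 sets of 48 mice (32 relations). miR-499-5p was higher in mice with more miR-133a-3p in every set, with Pearson's r from 0.64 to 0.759 and Spearman's rho from 0.671 to 0.864 (permutation, Benjamini-Hochberg adjusted p = 2.91e-05 for r and 3.2e-05 for rho, the smallest these permutations gave), and r from 0.609 to 0.785 without the 2 mice farthest from the median. The same held for miR-1a-3p (r from 0.63 to 0.699, rho from 0.635 to 0.73) and for miR-206-3p (r from 0.575 to 0.745, rho from 0.551 to 0.786), which is made in skeletal muscle. miR-208b-3p was related to miR-499-5p in 3 of 4 sets by r (0.0645 to 0.438) and in 2 by rho (0.106 to 0.482). miR-208a-3p was related in 0 of 4 sets to miR-499-5p (r from -0.10 to 0.20), to miR-208b-3p (-0.11 to 0.11) or to miR-133a-3p (-0.05 to 0.13), at a sparse level where a weak relation could not be detected.

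**Figure D4:**
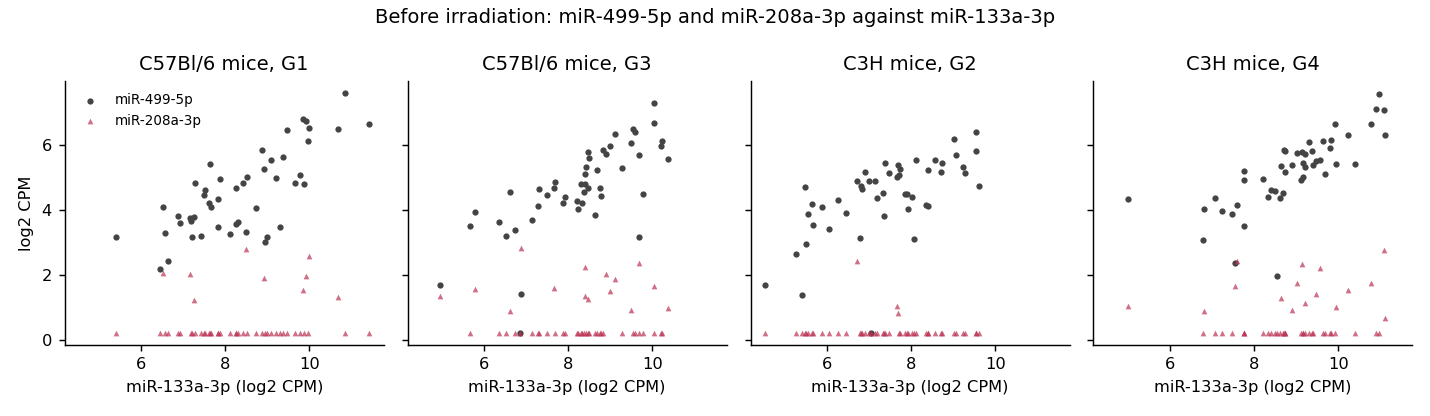
Level of miR-499-5p (dark circles) and miR-208a-3p (red triangles) against miR-133a-3p, both in log2 CPM, in the samples taken before irradiation, 1 panel for each of the 4 sets of 48 mice; triangles in the bottom row are samples without a miR-208a-3p read. The circles rise with miR-133a-3p in all 4 panels, with r from 0.64 to 0.759, and the r of miR-208a-3p lies between -0.05 and 0.13.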

How the data were processed

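Plasma miRNA was sequenced in 402 C3H and 497 C57Bl/6 samples. The authors left out hemolysed plasma and runs with few miRNA reads, prepared libraries with the QIAseq miRNA kit and aligned reads with a BaseSpace small RNA application to mm10; the miRBase release is not given in the sources used here. The deposited values are raw read counts per mature miRNA, with 1 column per sample, and whether molecular identifiers were used is not stated, so intervals and floors cover counting error only.

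Groups (strain, treatment, time point) came from the labels. Of 1915 listed miRNA, 1403 had a read and 483 passed edgeR's filterByExpr. Counts were TMM-scaled (factors 0.372 to 1.59) and fitted with edgeR 4.0.16 in R 4.3.3 (quasi-likelihood, 1 mean per group over all 32 groups, 867 residual degrees of freedom), with contrasts adjusted by Benjamini-Hochberg over 483 miRNA at 0.05. All 3 miRNA passed the filter, which asks for a minimum CPM in a number of samples set by the smallest group (8 samples here). The 8 samples with the highest CPM of miR-208a-3p were all irradiated. Its passing may therefore have rested on irradiated samples, the side where it was called higher. Detection (at least 1 read) was tested by Fisher's exact test over 1403 miRNA. Alternatives were limma 3.58.1 (voom, or quantile-normalized log2 RPM as in the study), DESeq2 1.42.0, covariates, no filter, and the mouse as a random or fixed block. The mouse number in the titles pairs samples of the same animal, and the consensus correlation within a mouse was 0.0434. Samples after PT within a mouse are otherwise treated as independent. No 2 samples held identical values. The scripts were tested on simulated counts.

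The text names the 3 miRNA, their opposite arms, 9 muscle miRNA and, for each of the 3, the 3 tested miRNA with the highest within-group correlation. The miRNA, the lists and the tests were chosen with earlier results of these data known.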

Additional observations from a re-analysis of the deposited data

How the results depend on the processing

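Of 642 alternatives over 51 values, 552 kept direction and side of the threshold, 63 lost the call, 21 gained one, 6 moved with the prior count or scaling and 0 reversed. The 2 calls of irradiation at single time points were 0 by limma-voom and by DESeq2, 1 by quantile normalization (miR-208b-3p, C3H D2), 1 with only the 2 groups compared (miR-499-5p, C3H D2) and 1 to 3 when the females or males of 1 set were left out. Values below are adjusted p of the F tests. For irradiation in C3H, miR-208a-3p had 0.0946 by quantile normalization, 0.42 by DESeq2, 0.18 by permutation over mice (unadjusted) and 0.0123 to 0.113 leaving out 1 sex of a set (0.113 without the males of G2); miR-208b-3p had 0.041 to 0.952 (0.041 without the females of G2), and miR-499-5p 0.0472 by permutation (unadjusted). In C57Bl/6, miR-208a-3p had 0.0606 by DESeq2, and miR-208b-3p 0.0429 without the 4 mice lacking a PT sample and 0.0498 to 0.133 leaving out 1 sex of a set (0.0498 without the males of G1).

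For sham mice over time in C3H, miR-208a-3p had 0.0457 by limma-voom, 0.0478 with set as a covariate and 0.00372 to 0.287 leaving out 1 sex of a set (0.00372 without the females of G4); miR-208b-3p had 0.0174 by limma-voom and 0.0381 to 0.678 (0.0381 without the females of G2). miR-499-5p had 0.0527 by quantile normalization and 0.000364 to 0.675 (0.675 without the males of G2 and 0.0577 without the females of G4). In C57Bl/6, miR-208a-3p had 0.596 by quantile normalization and 0.334 by DESeq2, and miR-208b-3p 0.0114 by limma-voom. The strain difference of the irradiation effect for miR-208a-3p had 0.0224 without a filter and 0.0306 to 0.387 leaving out 1 sex of a set (0.0306 without the males of G3), and that before irradiation 0.0462 by limma-voom and 0.018 to 0.769 (0.018 without the females of G4). The cause was not tested.

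With the mouse as a block in limma-voom (pairing the samples of an animal), 0 calls of irradiation at single time points were left with the random and 0 with the fixed block. The F test of irradiation for miR-208a-3p had 0.0591 (random) and 0.666 (fixed) in C57Bl/6 and 0.509 (fixed) in C3H. Sham mice over time had 0.0376 and 0.0337 for miR-208a-3p and 0.0116 and 0.00426 for miR-208b-3p in C3H (random, fixed), and in C57Bl/6 0.106 (fixed) for miR-208a-3p, 0.00916 and 0.0221 for miR-208b-3p, and 0.0531 and 0.28 for miR-499-5p. The strain difference of miR-208a-3p before irradiation had 0.0487 (random). The fixed block leaves only within-mouse changes, so it compares the change since PT between treatments. Leaving out single females or males of a set, permuting over mice and testing mice against their own PT sample were chosen after seeing the data. At 3 reads where found, depth limits miR-208a-3p and miR-208b-3p.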
